A study of Mus musculus with 36 samples.

Results

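The 10 genes described here, Mogat1, Dgat1, Dgat2, Fitm1, Fitm2, Plin4, Plin5, Cideb, Cidec and Pnpla2, encode proteins that make, package and release stored triglyceride. They were taken by name, 10 out of the 78239 genes of the count files, with earlier results of these data known. None of the 10 genes passed edgeR's test for age in liver, where at most 0.239% of all genes passed in a comparison. The largest fitted differences there, 12 against 8 weeks, were 2.44 on the log2 scale for Mogat1, which had enough pairs for the test in the 12-week group alone, 1.99 for Fitm1, and 1.80 for Cidec, which was 0.73 without 1 library. Plin5 and Dgat2 passed with a fall in kidney between 8 and 10 weeks, where 0.929% of all genes passed. Of 12 fits that each left out 1 library, Dgat2 did not pass in 7 and Plin5 in 1. Neither passed among the 8 libraries left without the 4 kidney libraries highest in the fat cell marker Ucp1. The fitted changes were -1.48 for Plin5 and -0.36 for Dgat2 there, against -1.31 and -0.44 over all 12. No member passed in heart, where at most 4.56% of all genes passed in a comparison. In edgeR's test the change of Fitm1 between 8 and 12 weeks differed between liver and both other tissues. Against kidney it did not pass under limma-voom, without those 4 libraries, or in 3 of 36 fits that left out 1 library. The study itself picked Fitm1 out of these livers, so this difference is not independent evidence.

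Triglyceride is built by acyltransferases on the endoplasmic reticulum, where MOGAT enzymes join a fatty acid to monoacylglycerol and the DGAT enzymes add the last fatty acid to diacylglycerol. The neutral lipid collects between the membrane leaflets and leaves as a droplet, a step that the FITM proteins assist. Perilipins and CIDE proteins coat the droplet and govern its size, and the lipase encoded by Pnpla2 removes the first fatty acid when fuel is needed. Liver holds droplets and exports triglyceride in lipoproteins, heart burns fatty acids drawn through a small droplet pool, and the proximal tubule of the kidney also runs on fatty acids.

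RNA was sequenced from liver, heart and kidney of male C57BL/6NCrl mice of WT genotype, aged 8, 10 or 12 weeks, with 4 libraries in each of 9 groups and 36 in all. All mice came from a commercial breeder, ate chow freely and received ketamine and xylazine before they were killed, and the organs were homogenized for RNA. The hour of collection and any fast before it are not given in the sources used here. Library names carry the same numbers in the 3 tissues, but whether a number marks 1 animal is not stated.

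The libraries held 21031599 to 33637390 read pairs assigned to a gene. The markers of each organ were summed over their lists in CPM, a count divided by the size of its library, scaled here over all 36 libraries. The 5 hepatocyte markers reached 92689 to 164170 CPM in liver and the 5 heart muscle markers 37376 to 51257 CPM in heart. The 6 kidney markers reached 18492 to 24477 CPM in kidney, so all libraries matched their labelled tissue. In these bulk libraries fewer cells of a type and less RNA per cell cannot be told apart.

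The promoters of Mogat1 and Fitm1, the members with the largest fitted difference in liver, and of Plin5, the member with the largest fitted fall in kidney, are shown 5′ to 3′ from 250 bases before to 50 bases after the annotated start (GRCm39, GENCODE annotation). Capitals mark the 5 motifs searched on both strands.
Mogat1, chr1:78488193-78488492, plus strand: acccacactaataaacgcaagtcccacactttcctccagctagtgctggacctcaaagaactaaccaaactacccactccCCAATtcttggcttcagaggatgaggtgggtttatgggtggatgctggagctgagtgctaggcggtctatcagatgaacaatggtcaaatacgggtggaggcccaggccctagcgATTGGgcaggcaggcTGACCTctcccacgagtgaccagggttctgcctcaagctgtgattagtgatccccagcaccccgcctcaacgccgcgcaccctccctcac
Fitm1, chr14:55812742-55813041, plus strand: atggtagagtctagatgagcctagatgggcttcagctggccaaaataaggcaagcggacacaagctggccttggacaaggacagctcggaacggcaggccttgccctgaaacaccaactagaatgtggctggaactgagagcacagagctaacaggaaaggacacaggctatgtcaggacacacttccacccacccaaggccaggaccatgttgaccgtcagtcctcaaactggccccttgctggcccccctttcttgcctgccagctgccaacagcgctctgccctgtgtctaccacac
Plin5, chr17:56424494-56424793, minus strand: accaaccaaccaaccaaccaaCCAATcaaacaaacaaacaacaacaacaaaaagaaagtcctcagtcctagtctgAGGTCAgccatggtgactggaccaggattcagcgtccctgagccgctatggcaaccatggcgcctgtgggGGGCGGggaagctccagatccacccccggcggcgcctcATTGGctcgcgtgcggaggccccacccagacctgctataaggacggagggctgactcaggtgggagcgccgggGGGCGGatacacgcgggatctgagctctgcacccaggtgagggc

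The nuclear receptor motif AGGTCA lay on the reverse strand at positions -40 to -35 of Mogat1 and on the forward strand at -175 to -170 of Plin5, counted from the start base as 0. The other 8 members lacked these letters in the window, and 15.1% of 21770 promoters of protein-coding genes held them. The CCAAT box, CCAAT, occurred in 3 members (39.9% of all promoters), with 2 matches each in the Mogat1 and Plin5 windows. The GC box, GGGCGG, occurred in 4 members (42.5%) and the TATA box, TATAAA, in 2 members (13.2%). The E-box CACGTG occurred in 0 members (7.81%), and the Fitm1 window held none of the 5 motifs. A match of letters is a description of the window and not a binding site.

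How pairs were assigned shaped the level of several members. The column used for the tests left out every pair that overlapped 2 genes, whatever the strand, and the libraries were not stranded (49.8% to 50.2% of pairs fell on the first strand column). The other 2 columns, 1 for each strand, gave a pair in a stretch shared by genes of opposite strands to the gene on the strand it fell on, so their sum splits such pairs between the genes. For Cideb, which lies at chr14:55991507-55996099 on the minus strand, 83.4% of the exonic bases are shared with Nop9 and Gm56758 on the plus strand. The column used for the tests held 114 pairs of Cideb over the 12 liver libraries and the strand columns 68901. In heart the same 2 counts were 8 and 962, and in kidney 108 and 63568. Pairs of Cideb and of its neighbours in the shared stretch cannot be told apart. Nop9 had 6929 pairs of its own in liver, 3785 in heart and 7091 in kidney. Fitm1, at chr14:55812992-55814411 on the plus strand, shares 18.7% of its exonic bases with Gm15932, and its strand columns held 9.32 times as many pairs in liver, 10.8 times in heart and 10.2 times in kidney. For Cidec the ratio was 2.18 in liver. Mogat1, at chr1:78487628-78514810 on the plus strand, shares 200 exonic bases with BC035947, which had 37921 pairs of its own in kidney, 1 in liver and 0 in heart, and its ratio was 1.34 in liver and 1.26 in kidney. For Dgat1, Dgat2, Plin4 and Plin5 the 2 ways of counting differed by at most 1.02 times, and for Fitm2 and Pnpla2 by at most 1.15 times.

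**Figure D1:**
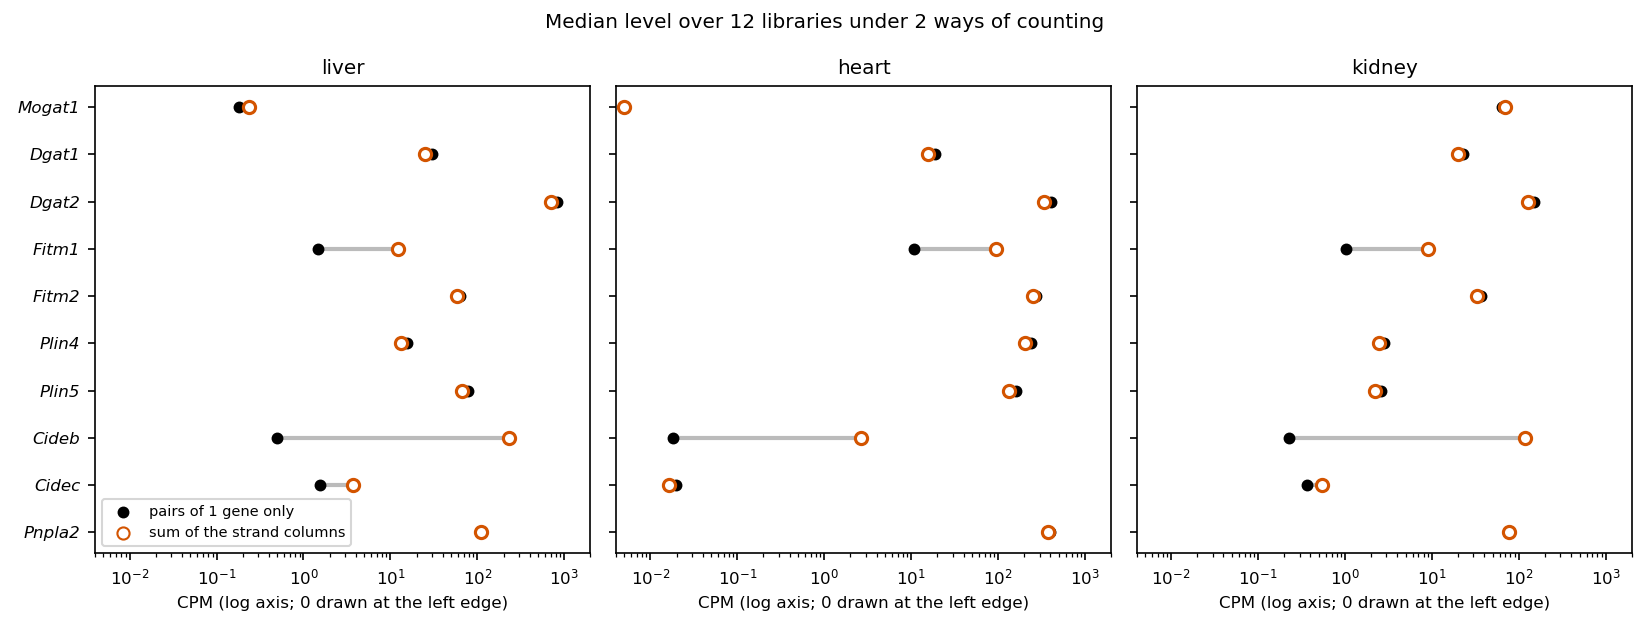
Median level of each gene over the 12 libraries of a tissue, in CPM on a log axis, from pairs of 1 gene only (black) and from the sum of the strand columns (open orange). The marks lie far apart for Cideb and Fitm1 in each tissue, and close together for Dgat1, Dgat2, Plin4, Plin5 and Pnpla2.

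The tissues differed in which storage genes they expressed. Per kilobase of exon, on the sum of the strand columns, Dgat2 (median 115 CPM per kilobase) and Cideb (137, its shared stretch included) led the liver. Pnpla2 (95.9) and Fitm1 (89.4, its shared stretch included) led the heart, ahead of Fitm2 (58.6), Dgat2 (56.3) and Plin5 (44.1). The place of Fitm1 depended on the shared pairs. From pairs of 1 gene only the heart medians were 101 for Pnpla2, 66.5 for Dgat2, 64 for Fitm2, 52.8 for Plin5 and 10.2 for Fitm1. In kidney the order was Cideb (71.2, its shared stretch included), Mogat1 (44), Dgat2 (21.2) and Pnpla2 (19.4). The place of Cideb in liver and kidney also depended on the shared pairs. From pairs of 1 gene only its medians were 0.298 in liver and 0.136 in kidney. On the sum of the strand columns, the ranges over the 12 libraries of Dgat2 and Cideb in liver overlapped. So did those of Pnpla2 and Fitm1 in heart, and each later neighbour in heart overlapped the one before it. In kidney the ranges of the first 3 genes did not overlap, and those of Dgat2 and Pnpla2 did.

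Among the synthesis genes, Mogat1 was highest in kidney, with 47.9 to 78.8 CPM in the 12 kidney libraries against 0.0502 to 1.10 CPM in liver. In heart 10 libraries had 0 pairs and the other 2 had 1 each. Dgat2, which encodes the acyltransferase that uses newly made fatty acids, ran from 682 to 1097 CPM in liver, 324 to 649 in heart and 108 to 188 in kidney, with no overlap between tissues. Dgat1, which encodes the other enzyme of that step, was flatter, at 23.3 to 32.7 CPM in liver, 14 to 20.1 in heart and 20.1 to 25.4 in kidney. The droplet formation gene Fitm2 was highest in heart (257 to 335 CPM), then liver (51.2 to 119) and kidney (31.1 to 47.3). Its relative Fitm1, known from muscle, had 7.11 to 12.9 CPM in heart, 0.244 to 5.67 in liver and 0.633 to 1.57 in kidney, so liver and kidney overlapped.

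The perilipin genes were highest in heart. Plin5, whose protein ties droplets to mitochondria, had 128 to 202 CPM in heart, 44.1 to 110 in liver and 1.88 to 8.84 in kidney. Plin4, which lies beside Plin5 on chromosome 17, had 192 to 405 CPM in heart, 5.12 to 25.1 in liver and 1.05 to 6.03 in kidney. Cidec, whose protein fuses droplets, had 0.778 to 12.8 CPM in liver, 0.0472 to 3.19 in kidney and at most 0.288 in heart. The lipase gene Pnpla2 had 313 to 431 CPM in heart, 81.9 to 183 in liver and 62.2 to 104 in kidney.

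All 10 members passed the test of level between liver and heart, where 84.2% of the genes tested passed, and between liver and kidney, where 83.1% did, so these counts stand near the background (edgeR quasi-likelihood test, Benjamini-Hochberg adjusted p under 0.05). On the log2 scale liver stood above kidney by 4.62 ± 0.16 (SE) for Plin5, 2.50 ± 0.08 for Dgat2 and 2.34 ± 0.23 for Plin4. Mogat1 went the other way, at -8.00 ± 0.15 in liver against kidney. The difference of liver minus heart was -4.29 ± 0.22 for Plin4, -2.66 ± 0.18 for Fitm1, -2.04 ± 0.07 for Fitm2, -1.67 ± 0.08 for Pnpla2 and -1.09 ± 0.13 for Plin5. The direction of each of the 10 genes held in both comparisons under every alternative run. For Mogat1, Cideb and Cidec, with at most 16 pairs over the 12 heart libraries, no fold against heart is given.

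**Figure D2:**
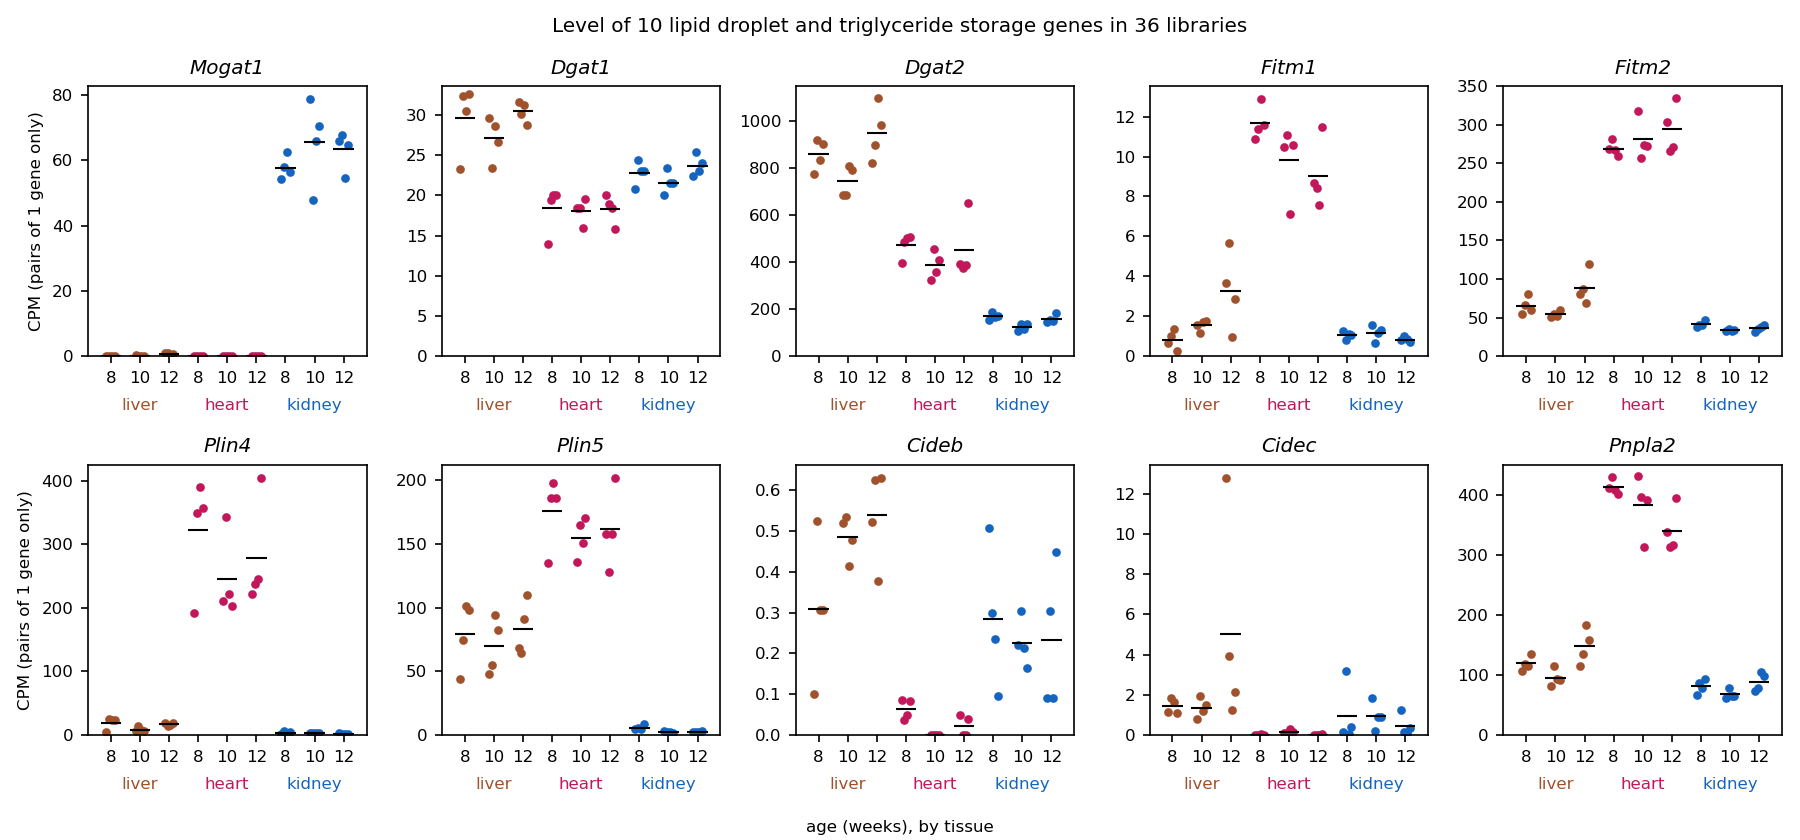
Level of each gene in CPM, from pairs of 1 gene only, in 36 libraries by tissue and age in weeks, with a point for each library and a bar for the mean of 4; the vertical axis starts at 0 and has its own range in each panel. Mogat1 is high in kidney alone (47.9 to 78.8 CPM), Dgat2 is highest in liver, and Fitm1, Fitm2, Plin4, Plin5 and Pnpla2 are highest in heart.

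In liver between 8 and 12 weeks, 0 of 10 members passed edgeR's test, where 0.239% of 14672 genes passed. The fitted change was above 0 for 9 of 10 members, with a median of 0.37 on the log2 scale against -0.004 over all genes tested. At an unadjusted p under 0.05 there were 5 members (15.1% of all genes). Mogat1 reached the mean of 10 pairs that the test required at 12 weeks only, and Cideb at 10 and 12 weeks only, so both entered through groups where they were higher and nothing is read from the counts that include them. Over the 8 members that reached it at all 3 ages, 7 fitted changes were above 0, the median was 0.22, and 4 had an unadjusted p under 0.05. DESeq2 passed 3 of the 10, Mogat1, Fitm1 and Cidec, where it passed 2.88% of all genes, and limma-voom passed 0. The study itself picked Mogat1 and Fitm1 out of these livers, so their direction here is not independent evidence, and Fitm1 is among the 8. The whole list was chosen with earlier results of these data known, so its counts and medians of direction are a description.

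Mogat1 in liver had 0.0502, 0.175, 0.183 and 0.0611 CPM at 8 weeks, 0.311, 0.153, 0.0516 and 0.159 at 10 weeks, and 0.824, 1.10, 0.235 and 0.533 at 12 weeks. The 4 libraries at 12 weeks all lay above the 4 at 8 weeks, a separation seen in 8.14% of genes tested, while 1 library at 10 weeks lay above the lowest at 12 weeks. These values rest on very few pairs, with means of 2.25 per library at 8 weeks, 3.75 at 10 weeks and 14.5 at 12 weeks. Only the 12-week group met the filter, so a gene kept in this way was bound to have more pairs there, and the fits that follow are a description and no support for a change. The fitted change from 8 to 12 weeks was 2.44 ± 0.60 (SE, edgeR adjusted p = 0.105), and from 10 to 12 weeks 1.97 ± 0.55 (adjusted p = 0.137). With DESeq2 the 12 against 8 weeks value was 2.52 with adjusted p = 0.0366, and without the filter on low counts edgeR gave 2.47 with adjusted p = 0.0474. With the strand columns the value was 1.79 (adjusted p = 0.193), and the ages overlapped.

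Dgat1 and Dgat2, the enzymes of the final step, had small fitted changes over the whole interval in liver. The fitted change at 12 against 8 weeks was 0.03 ± 0.11 for Dgat1 (adjusted p = 0.925) and 0.14 ± 0.10 for Dgat2 (adjusted p = 0.554, and 0.07 without replicate 3 at 12 weeks). Dgat2 had 774 to 916 CPM at 8 weeks, 682 to 809 at 10 weeks and 821 to 1097 at 12 weeks. The 12-week libraries lay above all 10-week libraries, by 0.35 ± 0.10 (adjusted p = 0.157 by edgeR and 0.0286 by DESeq2).

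Fitm1 in liver had 0.653, 1.01, 1.34 and 0.244 CPM at 8 weeks, 1.56, 1.15, 1.70 and 1.75 at 10 weeks, and 3.64, 5.67, 0.942 and 2.86 at 12 weeks. Replicate 3 at 12 weeks fell within the 8-week range, and the other 3 libraries lay above all earlier ones. The fitted change from 8 to 12 weeks was 1.99 ± 0.50 (edgeR adjusted p = 0.109, DESeq2 0.00637, edgeR without the filter 0.0039). With the strand columns the 8-week libraries had 2.26 to 13.5 CPM and the 12-week libraries 14.4 to 35.6, a change of 1.79 (edgeR adjusted p = 0.091, DESeq2 0.0145). The share of all genes whose ages separate on the strand columns was not counted, so nothing is read from that separation. Fitm2 had 55.0 to 79.9 CPM at 8 weeks, 51.2 to 60.0 at 10 weeks and 68.8 to 119 at 12 weeks, a change of 0.43 ± 0.16 (adjusted p = 0.231) over the whole interval, and of 0.25 without replicate 4 at 12 weeks.

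Of the coat genes in liver, Cidec had 1.15, 1.84, 1.65 and 1.10 CPM at 8 weeks, 0.778, 1.95, 1.19 and 1.47 at 10 weeks, and 12.8, 3.94, 1.22 and 2.13 at 12 weeks. Replicate 1 at 12 weeks stood far above every other liver library, the next being 3.94 CPM. Its fitted change at 12 against 8 weeks was 1.80 ± 0.60 (adjusted p = 0.196), and 0.73 (adjusted p = 0.435) without replicate 1 at 12 weeks. DESeq2 gave 1.82 (adjusted p = 0.0471), and edgeR without the filter 1.83 (adjusted p = 0.0167). At 12 against 10 weeks it was 1.89 ± 0.59 (adjusted p = 0.177), and 0.82 (adjusted p = 0.297) without that library. Cideb, whose protein also loads lipid onto lipoproteins, had a fitted change of 0.76 ± 0.40 (adjusted p = 0.384) on its few unshared pairs. That change was 0.47 without replicate 1 and 1.18 without replicate 2 at 8 weeks. On the strand columns the change was 0.22 (adjusted p = 0.218), with 202 to 220 CPM at 8 weeks and 228 to 277 at 12 weeks. Those columns include pairs of the shared stretch, and the share of all genes whose ages separate there was not counted. Nothing is read from the separation of Cideb.

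Plin4 in liver had 5.12, 25.1, 24.3 and 24.0 CPM at 8 weeks, 5.71, 14.6, 8.00 and 6.17 at 10 weeks, and 19, 13.9, 16.2 and 18.9 at 12 weeks. Replicate 1 at 8 weeks stood far below its group and close to the 10-week libraries. The fitted change was -1.18 ± 0.41 from 8 to 10 weeks (adjusted p = 0.224), 0.97 ± 0.41 from 10 to 12 weeks (adjusted p = 0.307) and -0.21 ± 0.40 over both (adjusted p = 0.849), the last turning to 0.03 under limma-voom. Leaving out replicate 1 at 8 weeks moved the last value to -0.52, and leaving out replicate 2, 3 or 4 at 8 weeks or replicate 2 at 12 weeks to between -0.11 and -0.07. The fitted change of Plin5 was 0.06 ± 0.27 from 8 to 12 weeks (adjusted p = 0.937), with 44.1 to 101 CPM at 8 weeks and 64.0 to 110 at 12 weeks.

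Pnpla2, the lipase of the list, had 107, 118, 114 and 135 CPM in liver at 8 weeks, 81.9, 114, 93.5 and 91.8 at 10 weeks, and 114, 135, 183 and 158 at 12 weeks. The lowest library at 12 weeks stood just above the highest at 10 weeks, and the 8-week range crossed both. The fitted change was -0.32 ± 0.14 from 8 to 10 weeks (adjusted p = 0.323), 0.63 ± 0.14 from 10 to 12 weeks (adjusted p = 0.0764) and 0.31 ± 0.14 over both (adjusted p = 0.325), the last being 0.19 without replicate 3 at 12 weeks.

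Between 8 and 10 weeks in liver, 0 of 10 members passed edgeR's test (0.0204% of all genes), 2 had an unadjusted p under 0.05 (14.3%), and DESeq2 (2.43%) and limma-voom passed 0. Between 10 and 12 weeks 0 of 10 passed edgeR (0.0545% of all genes), 7 had an unadjusted p under 0.05 (14.1% of all genes), DESeq2 passed 4, namely Fitm2, Cidec, Dgat2 and Pnpla2 (3.09% of all genes), and limma-voom 0. The fitted changes from 10 to 12 weeks were above 0 for all 8 members that reached the filter at each age, with a median of 0.66 against 0.006 over all genes, and 6 of these 8 had an unadjusted p under 0.05. The libraries of the 2 ages did not overlap for 3 members, Fitm2, Dgat2 and Pnpla2, and for 8.23% of all genes. The fitted change of Fitm2 was 0.70 ± 0.16 (adjusted p = 0.0764). Mean levels were lowest at 10 weeks for 7 of 10 members in liver, where 32.9% of all genes were lowest at that age. In heart this held for 4 of 7 members (29.5% of all genes) and in kidney for 4 of 9 (40.1%). The liver comparisons of 10 with 8 and of 12 with 10 weeks share the 10-week libraries, so their values are not independent of each other. As the list was chosen with earlier results known, its counts and medians here are a description too.

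Marker lists of other cell types also differed in range between the ages of liver. The 6 stellate cell markers summed to 222 to 460 CPM at 8 weeks, 298 to 376 at 10 weeks and 186 to 317 at 12 weeks, and the 5 macrophage markers to 101 to 225, 257 to 404 and 144 to 162 CPM. All 11 markers were detected in each age group. Their part in the results for the members was not tested. The 6 white fat markers summed to 7.72 to 19.9 CPM over the liver libraries, with Lep at 0 in all and Adipoq at most 0.0437. The 5 brown fat markers summed to 28.6 to 95.6 CPM at 8 weeks, 23.4 to 355 at 10 weeks and 107 to 217 at 12 weeks, with Dio2 at 0 in all and Ucp1 at 0 in 11 of 12 libraries. Cidea was at most 0.104 CPM. At 10 weeks Zic1 was at 0 too, so nearly all of the sum there came from Elovl3, which the study names among liver lipid genes. The sum is therefore no measure of brown fat in liver.

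The genes whose log2 CPM (edgeR, prior count 2) followed a member most closely over the 12 liver libraries, the 3 ages pooled, are given as a description. For Mogat1 they were Pparg, a nuclear receptor that drives fat storage (Pearson r = 0.954), Gm32468 (0.919), Entpd5 (0.918), Gm59620 (0.899) and Ugt1a6b (0.892). For Fitm1 they were Nalf2 (0.951), Abcd3, a peroxisomal fatty acid transporter (0.939), 4931406C07Rik (0.932), Acaa1b, a peroxisomal thiolase (0.915), and Abcg2 (0.909). For Plin4 they were Slc25a32 (0.954), Csnk1g3 (0.911), Lpin1, the phosphatase that makes diacylglycerol (0.907), Il6ra (0.906) and Hs6st1 (0.906). For Cidec they were Prpf19 (0.908), Pdcd6ip (0.904), Nup54 (0.894), Zc3h12c (0.890) and Tent4b (0.882), and a single library carried most of the range of Cidec. Between members the closest pairs were Dgat2 with Pnpla2 (0.86) and Mogat1 with Fitm1 (0.83). Mogat1 had only 82 pairs over these libraries, and each set holds the highest values among 14672 genes. The study itself named Mogat1, Fitm1 and Acaa1b among liver lipid genes, so the likeness of Fitm1 and Acaa1b is not independent of that choice. The points share age group and sequencing depth.

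**Figure D3:**
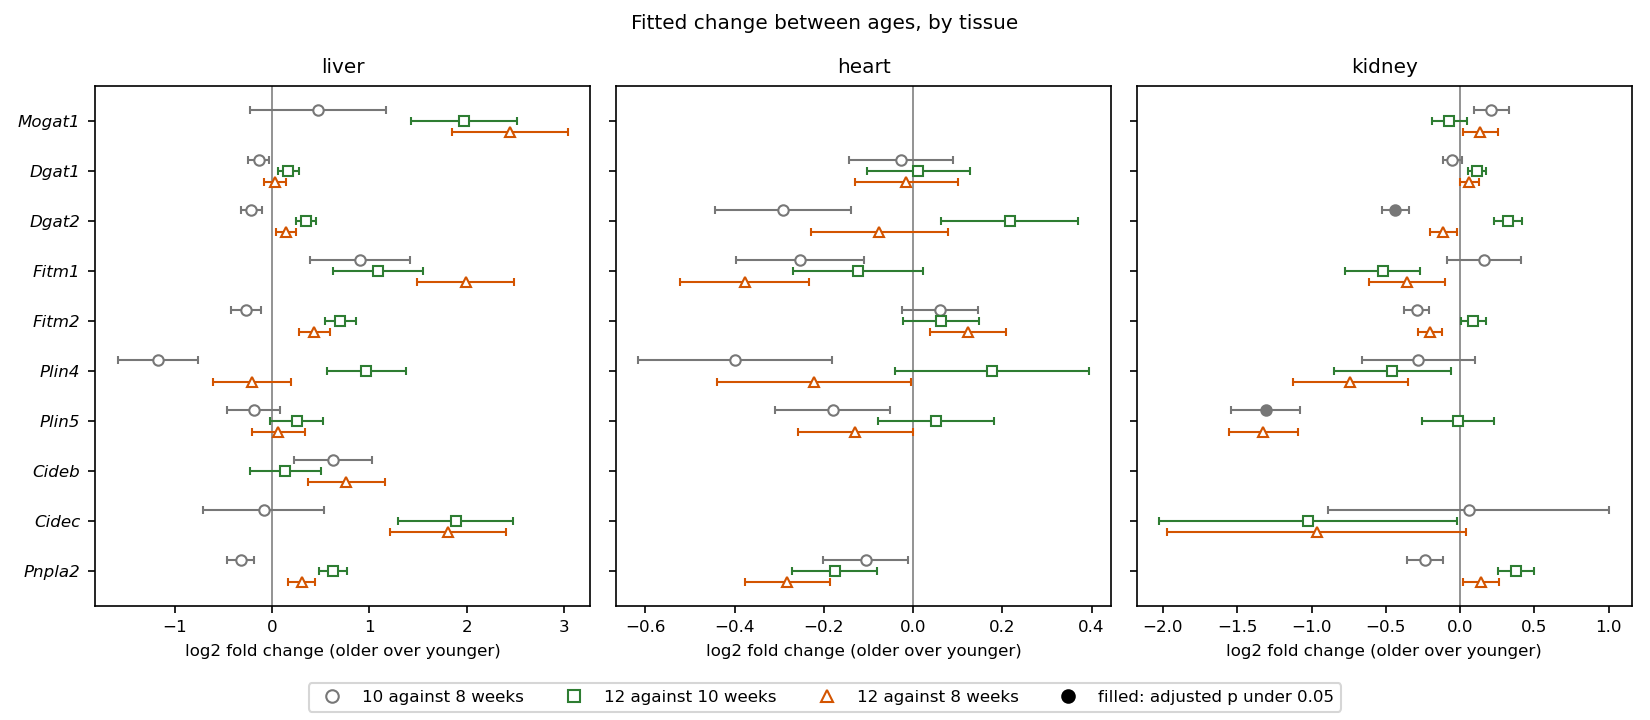
Fitted log2 fold change between ages for each gene (older over younger), with bars of 1 SE, in liver, heart and kidney; filled marks passed an adjusted p under 0.05, a gene with too few pairs in a tissue has no mark, and the horizontal ranges differ between panels. The filled marks are Plin5 (-1.31) and Dgat2 (-0.44) in kidney at 10 against 8 weeks, and the liver marks furthest to the right are Mogat1, Fitm1 and Cidec.

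In heart, 7 of the 10 members had enough pairs for the test, Mogat1, Cideb and Cidec being left out. Of these 7, 0 passed edgeR's test at 12 against 8 weeks, where 4.56% of all genes passed, 0 at 10 against 8 weeks (1.06%) and 0 at 12 against 10 weeks (0.0396%). DESeq2 passed 0 in each (7.89%, 2.42% and 0.291% of all genes in the same order), and so did limma-voom. At an unadjusted p under 0.05 there were 2 members in the first comparison (23.4% of all genes), 0 in the second (15.8%) and 0 in the third (11.7%). Pnpla2 had 411, 430, 408 and 401 CPM at 8 weeks and 337, 313, 316 and 395 at 12 weeks, so the ages did not overlap, as for 12.7% of all genes, with a fitted change of -0.28 ± 0.10 (adjusted p = 0.091). Fitm1 had 10.9, 11.4, 12.9 and 11.6 CPM at 8 weeks and 8.65, 8.43, 7.58 and 11.5 at 12 weeks, a change of -0.38 ± 0.14 (adjusted p = 0.127) that was -0.18 (adjusted p = 0.288) on the strand columns. Without replicate 4 at 12 weeks both passed, Pnpla2 at -0.36 (adjusted p = 0.021) and Fitm1 at -0.51 (adjusted p = 0.0286). That library held the highest level of its age for 6 of the 7 members, where it was the highest for 31.7% of all genes. The other heart members had fitted changes between -0.22 and 0.12 at 12 against 8 weeks.

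In kidney, 9 members had enough pairs, Cideb being left out. Between 8 and 10 weeks 2 of 9 members fell, Plin5 and Dgat2, where 0.929% of all genes passed edgeR's test. At an unadjusted p under 0.05 there were 3 members (16.5% of all genes), and DESeq2 passed the same 3, Plin5, Dgat2 and Fitm2 (3.65% of all genes). Plin5 had 4.33, 5.37, 4.68 and 8.84 CPM at 8 weeks, 3.20, 2.04, 2.18 and 1.88 at 10 weeks, and 2.24, 2.07, 2.09 and 2.87 at 12 weeks. All 4 libraries at 8 weeks lay above the 8 later ones, and 6.61% of all genes did not overlap between 8 and 12 weeks. The fitted change was -1.31 ± 0.23 at 10 against 8 weeks (adjusted p = 0.0198), and -1.32 ± 0.23 at 12 against 8 weeks (adjusted p = 0.0838, and 3.35e-05 by DESeq2). Dgat2 had 155, 188, 168 and 169 CPM at 8 weeks, 108, 136, 116 and 136 at 10 weeks, and 144, 152, 147 and 184 at 12 weeks. Its fitted change was -0.44 ± 0.09 at 10 against 8 weeks (adjusted p = 0.0409), and the 12 against 10 weeks value was 0.32 ± 0.09 (adjusted p = 0.109), again without overlap (8.93% of all genes).

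The libraries of 8 and 10 weeks did not overlap for 3 members, Plin5, Dgat2 and Fitm2, and for 9.09% of all genes. Fitm2 had 37.6 to 47.3 CPM at 8 weeks and 32 to 34.9 at 10 weeks, a change of -0.29 ± 0.08 (adjusted p = 0.0944, 0.0336 by DESeq2 and 0.00793 by edgeR without the filter). In the other kidney comparisons 0 of 9 members passed edgeR's test, at 12 against 8 weeks (0.0567% of all genes) and at 12 against 10 weeks (0.482%). At 12 against 8 weeks 2 members had an unadjusted p under 0.05 (11.7% of all genes), DESeq2 passed Plin5 (0.737%) and limma-voom 0. At 12 against 10 weeks 2 had an unadjusted p under 0.05 (16.4%), DESeq2 passed Dgat2 (3.32%) and limma-voom 0. Mogat1, at its highest in this tissue, had means of 57.7 ± 3.47, 65.7 ± 13.0 and 63.3 ± 5.83 CPM (SD, n = 4) at 8, 10 and 12 weeks, with overlapping libraries, and a change of 0.14 ± 0.12 from 8 to 12 weeks (adjusted p = 0.697).

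The fall of Plin5 at 10 weeks did not pass without replicate 3 at 10 weeks (-1.28, adjusted p = 0.0747). The fall of Dgat2 did not pass in 7 of the 12 fits that each left out 1 kidney library. These left out replicate 2, 3 or 4 at 8 weeks, replicate 1 or 3 at 10 weeks, or replicate 2 or 3 at 12 weeks, with changes of -0.44 to -0.38 and adjusted p of 0.0542 to 0.132. The change of Plin5 at 12 against 8 weeks passed without replicate 1 at 10 weeks (-1.32, adjusted p = 0.0462) or replicate 4 at 12 weeks (-1.44, adjusted p = 0.0492).

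Fat cell markers varied widely among the kidney libraries. Ucp1, the uncoupling protein of brown fat, had 16.2 CPM in replicate 2 at 8 weeks, 3.33 and 3.43 in replicates 1 and 4 at 10 weeks, 6.37 in replicate 1 at 12 weeks, and at most 2.20 in the other 8 libraries. The 6 white fat markers summed to 7.93 to 27.1 CPM at 8 weeks, 10.8 to 22.4 at 10 weeks and 7.23 to 17.1 at 12 weeks, and the 5 brown fat markers to 0.26 to 29.2, 2.12 to 9.20 and 0.227 to 13.1, with Zic1 at 0 throughout. Cidec, a fat cell gene, had 0.135, 3.19, 0.0472 and 0.384 CPM at 8 weeks, 1.82, 0.220, 0.875 and 0.899 at 10 weeks, and 1.23, 0.126, 0.0907 and 0.343 at 12 weeks, highest in libraries with most Plin1, the coat protein of fat cells. Over the 12 libraries Pearson's r between log2(CPM + 0.1) values was 0.98 for Cidec with Plin1, 0.69 for Plin4 with Plin1 and -0.03 for Plin5 with Plin1, a description of these libraries. Without the 4 libraries highest in Ucp1 the kidney change at 10 against 8 weeks was -1.48 for Plin5 (adjusted p = 0.0844) and -0.36 for Dgat2 (adjusted p = 0.18), so neither passed among 8 libraries. That choice rests on Ucp1 alone, and other fat markers rank the libraries differently. At 10 weeks replicate 3, which stayed in, had more Plin1 (1.25 CPM) than replicate 4 (1.17), which was left out. Its Cidea was lower (0.993 against 1.25). Any further part of fat RNA in the kidney values was not tested.

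**Figure D4:**
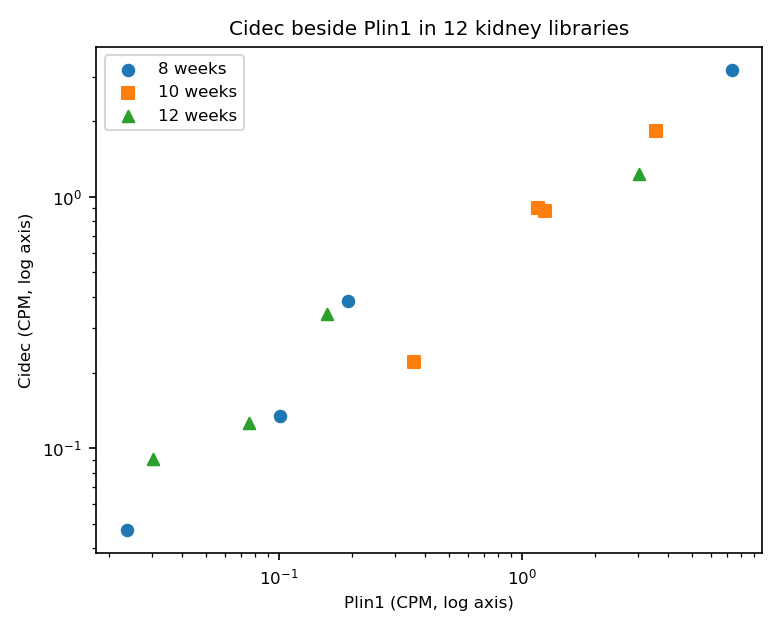
Cidec against Plin1 in the 12 kidney libraries, both in CPM on log axes, with a mark for each library by age. Replicate 2 at 8 weeks stands at the upper end of both (3.19 and 7.31 CPM), and the libraries low in Plin1 are low in Cidec.

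The changes from 8 to 12 weeks were then set against each other across tissues, in 1 fit over the 36 libraries that tested their difference. The study itself picked Mogat1 and Fitm1 out of these livers, so their tests here are not independent of that choice. Against heart, 1 of 10 members passed, where 4.16% of all genes passed. Fitm1 changed by 2.37 ± 0.45 more in liver than in heart (edgeR adjusted p = 0.00356), with adjusted p between 0.000275 and 0.00964 over the 36 fits that left out 1 library and 1.98 (adjusted p = 0.00271) on the strand columns. The difference for Pnpla2 was 0.59 ± 0.19 (adjusted p = 0.0621, and 0.0467 by DESeq2, which passed 6.29% of all genes), and it passed in 5 of 36 fits, at 0.59 to 0.69 with adjusted p of 0.0281 to 0.0488. These were without replicate 3 at 10 weeks or 4 at 12 weeks in heart, or replicate 4 at 8 weeks, 2 at 10 weeks or 1 at 12 weeks in liver. Pnpla2 also passed edgeR with a block on library number (0.58, adjusted p = 0.0295).

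Against kidney, 2 of 10 members passed, where 0.304% of all genes passed. Fitm1 changed by 2.36 ± 0.50 more in liver than in kidney (adjusted p = 0.0258) and Mogat1 by 2.33 ± 0.53 (adjusted p = 0.0425), with the few liver pairs given above. In 3 of 36 fits that left out 1 library Fitm1 did not pass: without replicate 4 at 8 weeks in kidney (2.35, adjusted p = 0.0648), replicate 1 at 12 weeks in kidney (2.33, 0.0672) or replicate 2 at 12 weeks in liver (1.97, 0.0547). Mogat1 did not pass in 16 of the 36, with 2.00 to 2.64 and adjusted p of 0.0504 to 0.103, namely without replicate 4 at 10 weeks or 1 or 4 at 12 weeks in heart, replicate 2, 3 or 4 at 8 weeks, 4 at 10 weeks or 1, 2 or 3 at 12 weeks in kidney, or replicate 1, 2 or 4 at 8 weeks, 4 at 10 weeks or 1 or 2 at 12 weeks in liver. On the strand columns the values were 1.92 for Fitm1 (adjusted p = 0.0158) and 1.71 for Mogat1 (adjusted p = 0.105). With limma-voom neither passed (Fitm1 2.28, adjusted p = 0.0962, and Mogat1 2.09, adjusted p = 0.124). Without the 4 kidney libraries highest in Ucp1 neither passed (Fitm1 2.44, adjusted p = 0.0751, and Mogat1 2.34, adjusted p = 0.0917). Plin5 and Fitm2 did not pass, with differences of 1.40 ± 0.35 (adjusted p = 0.0665) and 0.65 ± 0.17 (adjusted p = 0.0798), while DESeq2, which passed 1.27% of all genes, passed both (adjusted p = 0.0138 and 0.0309). Both also passed edgeR with a block on library number (1.39, adjusted p = 0.0151, and 0.63, adjusted p = 0.0499). Whether a number marks 1 animal is not stated. Plin5 passed without replicate 3 (1.54, adjusted p = 0.0483) or 4 (1.52, 0.045) at 8 weeks in liver, and Fitm2 without replicate 3 at 8 weeks (0.76, 0.0298) or at 12 weeks (0.75, 0.0286) in liver.

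**Figure D5:**
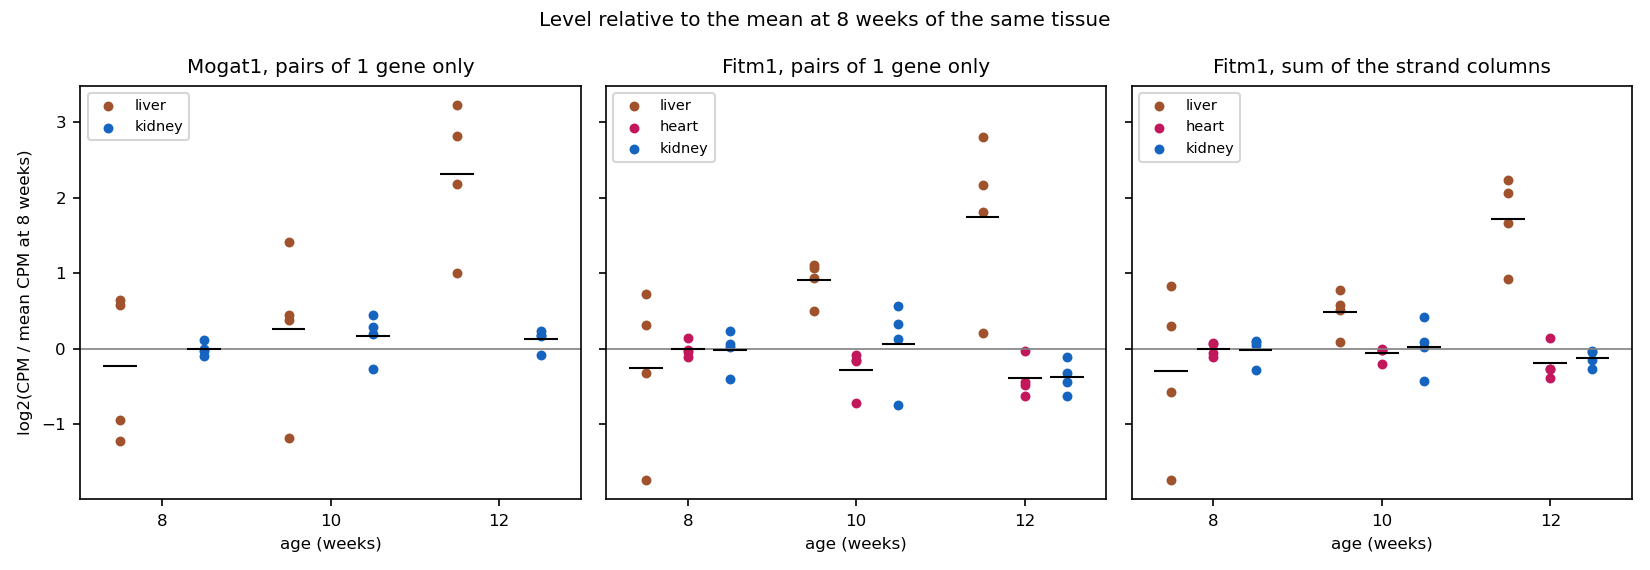
Level of Mogat1 and Fitm1 relative to the mean at 8 weeks of the same tissue, on a log2 scale, by age, with a point for each library and a bar for the mean of the 4 log2 values; heart is not drawn for Mogat1, where 10 of 12 libraries had 0 pairs. The liver points at 12 weeks stand above those of the other tissues under both ways of counting Fitm1.

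Replicate 1 at 8 weeks was often the lowest library of its group. In liver it was the lowest of its 4 libraries for 8 of 10 members (29.7% of all genes), in heart for 5 of 7 (32.9%) and in kidney for 7 of 9 (31.5%). Plin4 in that replicate had 5.12 CPM in liver against 24.0 to 25.1 in the other 3 libraries. It had 192 CPM in heart against 349 to 390, and 1.05 in kidney against 2.64 to 6.03. Dgat2 was also lowest there in all 3 tissues, with 774, 394 and 155 CPM, and so were Plin5 and Dgat1. The library names give the same number to these 3 libraries, and the cause was not tested.

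The other genes of triglyceride handling were counted from lists, also chosen with earlier results of these data known. In liver 0 of 10 genes of triglyceride synthesis, 0 of 9 of droplet coat and biogenesis, 0 of 10 of lipolysis, 0 of 7 of lipoprotein assembly, 0 of 10 of fatty acid uptake and 0 of 10 regulators passed in any comparison of ages, with medians at 12 against 8 weeks of 0.03, 0.08, 0.40, -0.00, 0.15 and 0.06 on the log2 scale. The 8 genes that respond to fasting had a median of 0.62 with 8 of 8 above 0 and 0 passing, and the 11 clock genes tested a median of 0.08. In kidney 0 passed, and the fasting list had a median of -1.06 at 12 against 8 weeks with 7 of 7 tested genes below 0.

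In heart 8 genes of these lists passed in some comparison of ages, 1 of 9 tested for triglyceride synthesis, 2 of 9 for droplet coat and biogenesis, 3 of 8 for fatty acid uptake and 2 of 4 of the fasting list, and 0 of 7 for lipolysis, 0 of 5 for lipoprotein assembly, 0 of 6 regulators and 0 of 12 clock genes. Over all genes 4.56% passed at 12 against 8 weeks, where 7 of the 8 passed, and 1.06% at 10 against 8 weeks. At 12 against 8 weeks Pdk4, which restrains glucose oxidation, rose by 0.79 ± 0.16 (adjusted p = 0.015) from 500 to 877 CPM over the 8-week libraries to 1035 to 1544. Angptl4, an inhibitor of lipoprotein lipase, rose by 1.28 ± 0.32 (adjusted p = 0.0343), from 4.14 to 5.92 CPM at 8 weeks to 7.85 to 19.4 at 12 weeks. Acsl1, which activates fatty acids, rose by 0.34 ± 0.07 (adjusted p = 0.0158). The fatty acid carriers Fabp4 (-0.59 ± 0.13, adjusted p = 0.0247) and Slc27a1 (-0.40 ± 0.11, adjusted p = 0.0441) fell, as did the acyltransferase gene Agpat2 (-0.35 ± 0.09, adjusted p = 0.0355) and the droplet protein gene Aup1 (-0.37 ± 0.09, adjusted p = 0.031). At 10 against 8 weeks Hsd17b11, which encodes a droplet protein, fell by 0.63 on the log2 scale (SE 0.09, adjusted p = 0.00263), and its 12-week libraries (41.3 to 44.8 CPM) lay back near the 8-week range of 43.5 to 53.2.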

How the data were processed

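RNA-seq was available for 36 libraries, 4 for each of 3 tissues at 3 ages. According to the submitters' processing notes and the study's methods, reads were checked with FastQC 0.11.9, trimmed with cutadapt 4.2, aligned to GRCm39 with STAR 2.7.11b and counted by STAR on the Ensembl annotation. The deposited files hold raw counts of read pairs per gene, in 1 column without strand and 2 columns for the strands.

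The column without strand was tested and the sum of the strand columns served as an alternative. Genes were kept as in the study's methods, with a mean count of 10 or more and at least 2 samples above 0 in 1 age group. Counts were scaled by TMM and tested with edgeR 4.0.16 in R 4.3.3 (quasi-likelihood, 1 mean per age in each tissue, or per group over all 36 libraries for differences between tissues), with adjusted p under 0.05 called. The spread between libraries, as a common coefficient of variation, was 0.206 in liver, 0.118 in heart and 0.113 in kidney. Printed levels are CPM scaled over all 36 libraries, from totals of 21031599 to 33637390 pairs. DESeq2 1.42.0, limma-voom (limma 3.58.1), other filters and scalings, left-out libraries and a replicate block were tried. Leaving out the 4 kidney libraries highest in Ucp1, and the strand columns under the other tools, were chosen after seeing the data. The model code was tested on simulated data with 200 changed genes.

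The members and the other lists were chosen with earlier results of these data known. Named beside the members were list genes that passed in a comparison of ages and, for Mogat1, Fitm1, Cidec and Plin4, the 5 genes with the highest Pearson correlation in liver. Sequences and gene positions came from GRCm39 and GENCODE vM39. The mice were separate animals within a tissue according to the study's methods, 4 per age. Replicate numbers were not taken to pair libraries, since the labels do not say that a number marks 1 animal. Deviations of same-numbered libraries from their group means correlated with a median of 0.03 between ages in liver. Between tissues of 1 age the median was 0.10 (highest 0.26), where 20 of 36 pairs exceeded 0.1. Differently numbered libraries of 1 age had a median of -0.04 between tissues (highest 0.11). The main fit over 36 libraries treated all libraries as independent, and whether they are was not tested. The study collected liver, heart and kidney from its mice, so libraries of different tissues can share an animal. That fit and its SEs for differences between tissues leave any such sharing out.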

Additional observations from a re-analysis of the deposited data

Results flagged for a closer look

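The change of Fitm1 between 8 and 12 weeks differed between liver and heart by 2.37 on the log2 scale (edgeR adjusted p = 0.00356) and between liver and kidney by 2.36 (adjusted p = 0.0258), and that of Mogat1 between liver and kidney by 2.33 (adjusted p = 0.0425). The study had picked both genes out of these livers, and limma-voom passed neither against kidney.

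Within groups of 4, 8 of 90 tests of a member in a group found 1 library far from the other 3 by Dixon's criterion, which chance alone meets in about 1 of 20 groups. Plin4 was low in liver replicate 1 at 8 weeks (5.12 CPM, next 24.0). In heart Plin4 was high in replicate 2 at 10 weeks (343 CPM, next 222) and in replicate 4 at 12 weeks (405, next 245), Dgat2 was high in that last library (649, next 389), Dgat1 was low in replicate 1 at 8 weeks (14, next 19.5), and Fitm1 was low in replicate 3 at 10 weeks (7.11, next 10.5). In kidney Cidec was high in replicate 2 at 8 weeks (3.19 CPM, next 0.384) and Pnpla2 was high in replicate 2 at 10 weeks (78.8, next 64.5).

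The strand columns, outside the main counts, added 68787 pairs to the 114 of Cideb over the 12 liver libraries, and 28647 pairs to the 2921 of Fitm1 over the 12 heart libraries.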

How the results depend on the processing

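Of the 10 members, the number that passed in liver at 12 against 8 weeks moved from 0 to 3 with DESeq2 and with no filter, and to 1 with DESeq2 on the strand columns. At 10 against 8 weeks it moved from 0 to 1 with no filter. At 12 against 10 weeks it moved from 0 to 4 with DESeq2 and to 3 with no filter and with DESeq2 on the strand columns. In heart it moved from 0 to 2 with no filter. In kidney it moved from 2 to 5 with no filter, to 1 with 2 ages only and to 0 without the 4 libraries highest in Ucp1. Members whose change differed from heart moved from 1 to 2 with DESeq2, with no filter and with the replicate block, where Pnpla2 joined Fitm1 (0.58, adjusted p = 0.0295, with the block). Members whose change differed from kidney moved from 2 to 4 with DESeq2 and with the replicate block, where Fitm2 (0.63, adjusted p = 0.0499, with the block) and Plin5 (1.39, 0.0151) joined, to 5 with no filter, to 1 on the strand columns, and to 0 with limma-voom and without the 4 libraries highest in Ucp1. The replicate block changed no other of these counts by over 1.5 times. Leaving out each library in turn gave 0 in each liver comparison, 0 to 2 in heart, 0 to 2 in kidney, 1 to 2 against heart, 0 to 4 against kidney and 10 for both comparisons of level. Signs turned for Plin4 in liver at 12 against 8 weeks (0.03 with limma-voom and 0.01 with limma-voom on the strand columns), and, with 1 library left out on either count, for Dgat1 (-0.06 to 0.08, and -0.08 at its lowest on the strand columns) and Plin5 (-0.13 and -0.10, or -0.14 and -0.11 on the strand columns, up to 0.21) at 12 against 8 weeks and Mogat1 (-0.01 on the strand columns, up to 0.76) at 10 against 8 weeks in liver. The calls over all genes moved too: in liver at 12 against 8 weeks 35 genes passed edgeR, 34 limma-voom, 423 DESeq2 and 330 edgeR with no filter, and in kidney at 10 against 8 weeks 164, 175, 644 and 1005. With DESeq2 the counts at 10 against 8 and 12 against 10 weeks in liver were 356 against 3 and 453 against 8, in heart 1195, 366 and 44 against 691, 161 and 6 for 12 against 8, 10 against 8 and 12 against 10 weeks, in kidney 130 against 10 and 586 against 85, and for the changes between tissues 1241 against 821 (heart) and 250 against 60 (kidney). The cause of these shifts was not tested. In the fits of ages within liver Mogat1 has no value under filterByExpr, which left it out, nor at 10 against 8 weeks with 2 ages only. Few pairs of 1 gene only limit Mogat1, Cideb, Fitm1 and Cidec most, with 82, 114, 480 and 682 over the 12 liver libraries. For Cideb and Fitm1 this follows from pairs shared with genes on the other strand, as the strand columns held 68901 and 4473. Whether the overlaps named above hold all of those pairs was not tested.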
